A study of Mus musculus with 22 samples.

Results

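Lysine crotonylation of histone H3 at lysine 9 (H3K9cr) was compared between the telencephalon of mouse embryos at embryonic day 16.5 (E16.5) and at embryonic day 13.5 (E13.5). The peaks described are all those in the 4 deposited H3K9cr peak lists, 2 libraries per stage, on chromosomes 1 to 19 and X. They number 144872 of the 652398 peaks in the 14 peak lists of the series, with 41063 and 42293 peaks in the E16.5 libraries, against 32556 and 28960 in the E13.5 libraries. No measured value was used to choose them. The series holds 22 samples, 2 biological replicates in each of 11 groups by its design text, all from telencephalon of the outbred ICR strain with no genetic change or treatment. It covers native ChIP-seq (immunoprecipitation of chromatin that was not crosslinked) of H3K9ac, H3K9cr and H3K18la, RNA-seq at both stages, ATAC-seq (open chromatin) at E13.5, and input libraries that were not analysed here. The sources used here do not give the number of embryos behind each library, so p-values measure the spread between libraries, which may be partly technical. In bulk tissue, fewer cells of a type and less RNA or less of a mark per cell cannot be told apart.

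Crotonylation is an acyl mark made from crotonyl-CoA by enzymes that also acetylate histones, chiefly p300 and CBP, and removed by class I histone deacetylases and some sirtuins. It lies at active gene starts and enhancers next to acetylation of the same residue, and YEATS domain proteins bind it. Between the stages compared, cortical progenitors pass from making deep-layer neurons to making upper-layer neurons, earlier-born neurons extend axons and begin to form synapses, and the first glia arise.

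Gene starts where H3K9cr differed between the stages also differed in their sequence, and 6 RefSeq promoters (build GRCm38.p6, 250 bases before to 50 bases after the start) are shown to let this be read directly. CpG pairs, the sites of DNA methylation, are in capitals. The first 3 belong to genes with a region of more H3K9cr at E16.5 within 2000 bp of their start. For Frmd4a and Celf2 this was not the tallest region at the start, which was not called. Frmd4a (chr2:4017433-4017732, plus strand) held 2 CpG pairs, Celf2 (chr2:7395951-7396250, minus strand) held 6, and Hepacam (chr9:37367356-37367655, plus strand) held 6.
Frmd4a: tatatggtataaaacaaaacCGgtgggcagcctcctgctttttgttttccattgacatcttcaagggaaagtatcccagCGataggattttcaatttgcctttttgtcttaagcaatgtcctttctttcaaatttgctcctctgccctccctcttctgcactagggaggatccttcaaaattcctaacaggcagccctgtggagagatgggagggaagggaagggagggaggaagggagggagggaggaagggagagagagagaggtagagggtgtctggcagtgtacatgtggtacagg
Celf2: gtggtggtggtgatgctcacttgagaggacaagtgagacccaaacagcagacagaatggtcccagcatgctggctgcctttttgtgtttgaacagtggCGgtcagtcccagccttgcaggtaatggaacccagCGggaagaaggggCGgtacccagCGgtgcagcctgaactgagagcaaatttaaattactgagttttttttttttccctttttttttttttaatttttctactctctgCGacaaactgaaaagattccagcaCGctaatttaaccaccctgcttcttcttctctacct
Hepacam: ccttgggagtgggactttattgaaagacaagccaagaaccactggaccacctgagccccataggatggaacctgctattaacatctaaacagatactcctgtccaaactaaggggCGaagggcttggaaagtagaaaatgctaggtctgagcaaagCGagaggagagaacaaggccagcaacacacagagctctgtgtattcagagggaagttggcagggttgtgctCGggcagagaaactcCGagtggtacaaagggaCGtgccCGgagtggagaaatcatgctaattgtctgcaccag
The other 3 belong to genes with a region of less H3K9cr at E16.5 within 2000 bp of their start. That of Rab35 (chr5:115632353-115633252) lay outside the printed bases, and the tallest region at the Rab35 start was not called. Ticrr (chr7:79659946-79660245, plus strand) held 21 CpG pairs, Rab35 (chr5:115631737-115632036, plus strand) held 43, and Hmga2 (chr10:120476420-120476719, minus strand) held 12.
Ticrr: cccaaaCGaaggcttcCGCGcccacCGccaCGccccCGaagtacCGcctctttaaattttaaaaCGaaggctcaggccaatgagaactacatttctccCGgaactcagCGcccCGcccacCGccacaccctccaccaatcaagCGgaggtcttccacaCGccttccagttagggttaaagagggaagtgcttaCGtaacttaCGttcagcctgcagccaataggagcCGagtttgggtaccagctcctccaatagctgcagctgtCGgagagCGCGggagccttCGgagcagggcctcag
Rab35: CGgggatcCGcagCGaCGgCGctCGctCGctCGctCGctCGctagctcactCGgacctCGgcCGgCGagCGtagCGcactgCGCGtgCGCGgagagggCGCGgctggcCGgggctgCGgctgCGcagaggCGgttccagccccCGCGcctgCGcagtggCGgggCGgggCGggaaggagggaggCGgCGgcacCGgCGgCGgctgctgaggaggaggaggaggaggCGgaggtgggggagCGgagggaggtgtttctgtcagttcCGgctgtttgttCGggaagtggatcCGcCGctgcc
Hmga2: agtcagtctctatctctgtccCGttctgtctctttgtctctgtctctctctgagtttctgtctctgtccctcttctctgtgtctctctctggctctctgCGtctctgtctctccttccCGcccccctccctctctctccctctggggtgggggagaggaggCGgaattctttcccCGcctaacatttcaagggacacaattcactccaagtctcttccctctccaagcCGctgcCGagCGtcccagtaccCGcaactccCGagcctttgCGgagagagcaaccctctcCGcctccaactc

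The lists differed in depth and scale. Peaks covered 49.8 and 51.1 Mb at E16.5, against 41.9 and 35.4 Mb at E13.5. Each peak came with a pileup (the fragment coverage at its summit) and a fold enrichment (that pileup over the caller's local background). Median pileup of the regions shared by all lists was 101 and 106 at E16.5, against 79 and 56 at E13.5, while their median fold enrichment was 24.9 and 23.9 at E16.5, against 22.7 and 19.7 at E13.5. Over all listed peaks the median pileup was 37 in both E16.5 libraries, against 41 and 40 at E13.5. The sources used here give neither read depth nor the control for peak calling, so heights were compared after each library was centred on its own median. Over 24350 shared regions the log2 fold enrichments of the 2 libraries of a stage had a Pearson r of 0.96 at E16.5 and 0.97 at E13.5, against 0.90 to 0.92 between stages (a description across regions, with no p). The tissue label fitted its markers: all 10 genes of telencephalon identity had a peak at the start in all 4 lists, and 13 of 14 Hox genes of hindbrain and spinal cord had none.

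Merging overlapping peaks gave 47902 regions. Of these, 24350 (50.8%) had peaks in all 4 lists, 6647 had peaks in both E16.5 lists and neither E13.5 list, 280 had peaks in both E13.5 lists and neither E16.5 list, and 16625 were mixed. Shared regions were tall and lay mostly at genes: 54.7% were within 2000 bp of a gene start, 22.5% in gene bodies and 22.7% between genes. Regions found at E16.5 alone were low and distal. Of them 6.12% lay at a gene start, their median fold enrichment was 4.84, and their median distance to the nearest shared region was 26499 bp. Of the 280 E13.5-only regions, 18.6% lay at a gene start, with a median fold enrichment of 5.05. The excess of E16.5-only regions moved with the number of peaks called: with every list reduced to the same number of its strongest peaks, 1958 regions were found at E16.5 alone and 1124 at E13.5 alone. Leaving out a library also moved these counts, since 1 list is easier to satisfy than 2. Without replicate 1 or 2 of E16.5, 12154 or 10982 regions were E16.5-only and 579 or 600 were E13.5-only. Without replicate 1 or 2 of E13.5, 9923 or 7308 were E16.5-only and 795 or 1588 were E13.5-only.

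Shared peaks kept their position. The median distance between the summits of the tallest peaks in a shared region was 27 bp between the E16.5 libraries and 32 bp between the E13.5 libraries, against 52 to 61 bp between libraries of different stages. Summits lay over 1000 bp apart in 0.850% of shared regions within E16.5 and 0.743% within E13.5, against 1.55% to 1.71% between stages. These distances were not tested.

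Peak height changed at a minority of shared regions. With limma on centred log2 fold enrichment and Benjamini-Hochberg adjustment over all 24350 regions, 1021 regions (4.19%) were higher at E16.5 and 1646 (6.76%) were lower. The falls sat at gene starts and the rises were more often distal: 80.9% of the regions that fell were at a gene start, against 33.1% of those that rose and 54.7% of all shared regions. The median region that rose had a fold enrichment of 22.5 and 21.5 at E16.5, against 9.14 and 7.76 at E13.5, and the median region that fell had 25.1 and 23.3 at E16.5, against 46.9 and 42.1 at E13.5. Scaling set the balance of the directions. Without centring 2221 regions were higher and 818 lower, and with quantile normalization 723 were higher and 690 lower. The median log2 change over all shared regions was -0.12 with centring, 0.09 without it and -0.01 with quantile normalization. A core of 645 regions was higher and 569 were lower under all 3 scalings, and of these 37.1% and 77.3% lay at a gene start. With any 1 library left out, no region was called in fold enrichment, although 6253 to 6760 regions were at an unadjusted p under 0.05.

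Pileup and width were also read at the same regions. Fold enrichment is pileup over local background, so agreement between these 2 heights is partly built in. That background was at its floor value for 47.5% to 59.2% of the peaks in each library. In pileup, 3600 shared regions (14.8%) were higher at E16.5 and 5700 (23.4%) were lower. Of the 1021 regions higher in fold enrichment, 986 were also called higher in pileup, and of the 1646 lower regions 1580 were also called lower. Without centring 9356 regions were higher and 182 lower in pileup, and with quantile normalization 3728 were higher and 3651 lower. Without replicate 1 or 2 of E16.5 the pileup calls were 1292 higher and 2065 lower, or 1002 higher and 1804 lower. Without replicate 1 or 2 of E13.5 they were 2439 higher and 4259 lower, or 1947 higher and 3040 lower. Width changed at few regions: 227 (0.932%) were wider at E16.5 and 26 (0.107%) narrower, and none was called with any 1 library left out, with 2848 to 7420 regions at an unadjusted p under 0.05.

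**Figure D1:**
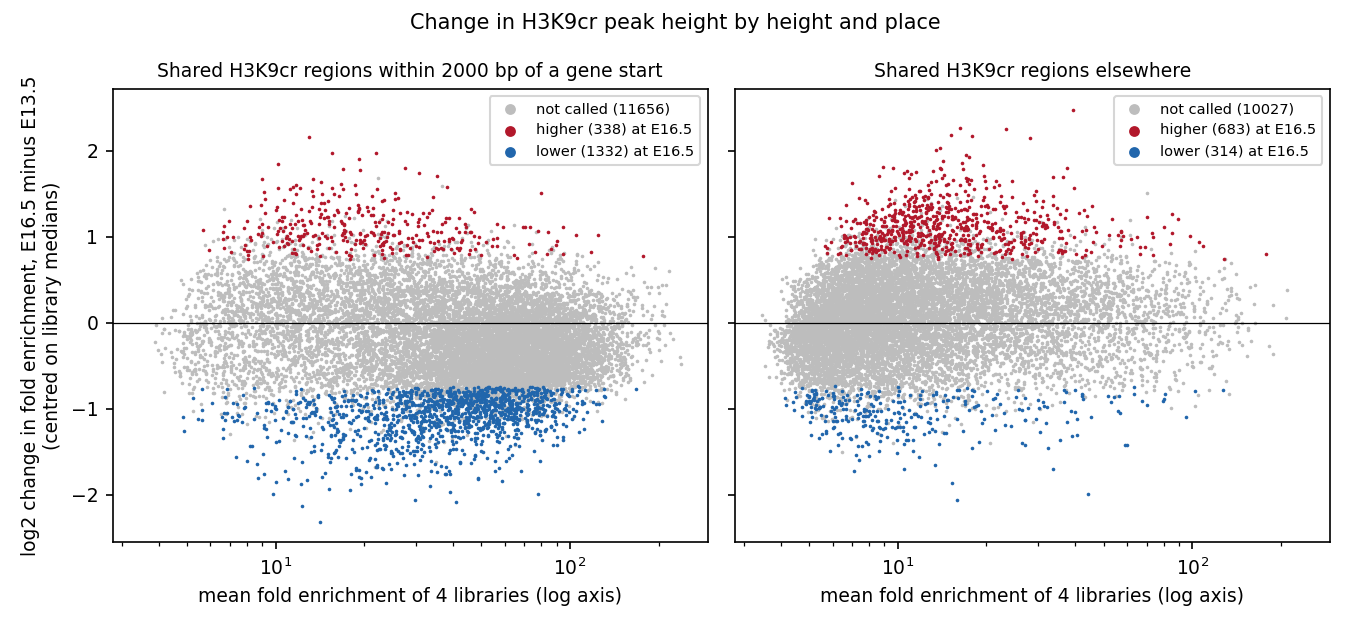
Change of H3K9cr height at shared regions, as E16.5 minus E13.5 in centred log2 fold enrichment, against mean fold enrichment of the 4 libraries on a log axis, for regions within 2000 bp of a gene start (left) and elsewhere (right). Points are regions, with those called higher (1021) and lower (1646) by limma marked. The calls lie on both sides of 0 and over a wide range of heights.

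The largest rises at gene starts were at receptors, a matrix gene and neuronal regulators. The 12 regions named here and in the next paragraph had an adjusted p of 0.0313 in limma, except that of Kdm2a at 0.0356. They were chosen for large changes in fold enrichment, a ratio that has pileup as its numerator. A gap between the stages in either measure is therefore partly built in. Frmd4a encodes a FERM domain scaffold of cell polarity. Its start region (chr2:4017030-4019520, GRCm38) had a fold enrichment of 21.9 and 21.5 at E16.5, against 3.83 and 4.65 at E13.5, a log2 change of 2.16 ± 0.22 (SE, n = 2 libraries each). That region also widened, to 2308 and 2491 bp at E16.5 against 313 and 356 bp at E13.5. Sstr1, a somatostatin receptor, had 40.1 and 31.6 at E16.5, against 7.92 and 7.77 at E13.5 (chr12:58211917-58215021, log2 change 1.98 ± 0.20). Chrm1, the M1 muscarinic acetylcholine receptor, had 23.8 and 27.0 at E16.5, against 5.04 and 6.22 at E13.5 (chr19:8663559-8666533, log2 change 1.97 ± 0.24). In each of these the stages were far apart and the replicates close. Col15a1, a collagen of basement membranes, had 29.4 and 33.1 at E16.5, against 6.69 and 7.75 at E13.5 (chr4:47207801-47208987, log2 change 1.91 ± 0.22). Gda, the guanine deaminase known for shaping dendrites, had 17.9 and 14.9 at E16.5, against 3.83 and 4.06 at E13.5 (chr19:21471995-21472778, log2 change 1.84 ± 0.20). Celf2, an RNA-binding regulator of splicing, had 43.6 and 44.3 at E16.5, against 12.3 and 9.70 at E13.5 (chr2:7393000-7396552, log2 change 1.80 ± 0.18). The tallest region at the starts of Frmd4a, Chrm1 and Celf2 was another one, not called, with log2 changes of 0.02, 0.41 and 0.66. RNA of all 6 genes was also higher at E16.5 by edgeR's quasi-likelihood test with Benjamini-Hochberg adjustment, beside 28.4% higher and 29.2% lower of all 16237 genes tested. Gda RNA was 11.4 and 12 CPM (RNA counts scaled for library size) at E16.5, against 0.360 and 0.441 CPM at E13.5 (log2 change 4.84, adjusted p = 2.8e-06). Celf2 RNA was 824 and 819 CPM at E16.5, against 679 and 659 CPM at E13.5 (log2 change 0.30, adjusted p = 0.000135).

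The largest falls at gene starts were at genes of progenitors and of DNA replication, and at 3 regions with no RNA fall of like size. Hmga2, a chromatin protein of fetal neural stem cells, had a fold enrichment of 12 and 13.7 at E16.5, against 48.4 and 44.5 at E13.5 (chr10:120473765-120478523, log2 change -2.06 ± 0.19). Its RNA was 1.34 and 1.69 CPM at E16.5, against 35.4 and 48.3 CPM at E13.5. Ticrr, which is needed to start DNA replication, had 18.5 and 16.6 at E16.5, against 62.6 and 66.5 at E13.5 (chr7:79660199-79662808, log2 change -2.09 ± 0.20), and its RNA fell by 1.68 on the log2 scale. For both genes the mark and the RNA were lower in every E16.5 library than in any E13.5 library. Dmrt3, a transcription factor of medial cortical progenitors, had 5.08 and 5.15 at E16.5, against 20.5 and 18.6 at E13.5 (chr19:25608824-25613091, log2 change -2.14 ± 0.18). The Dmrt3 region shrank to 523 and 606 bp at E16.5, against 4171 and 3227 bp at E13.5. Rab35, a small GTPase of endosomal recycling, had 5.35 and 5.19 at E16.5, against 26.8 and 19.3 at E13.5 (chr5:115632353-115633252, log2 change -2.32 ± 0.19), while its RNA was not called (log2 change -0.17, edgeR adjusted p = 0.0916). The tallest region at the Rab35 start was another one and was not called (log2 change -0.78). The region between Lsr, a receptor for lipoproteins and a protein of tricellular junctions, and Fam187b had 4.57 and 4.24 at E16.5, against 15.6 and 14.7 at E13.5 (chr7:30972499-30974191, log2 change -1.99 ± 0.18), and Lsr RNA was not called. The region of Kdm2a, a histone demethylase that binds CpG-rich DNA, and 9430078G10Rik had 23.0 and 51.4 at E16.5, against 125 and 111 at E13.5 (chr19:4394742-4398819, log2 change -1.99 ± 0.39). Its E16.5 replicates differed by more than those of the other named regions, it was not called with quantile normalization (adjusted p = 0.0616), and Kdm2a RNA fell by 0.31.

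**Figure D2:**
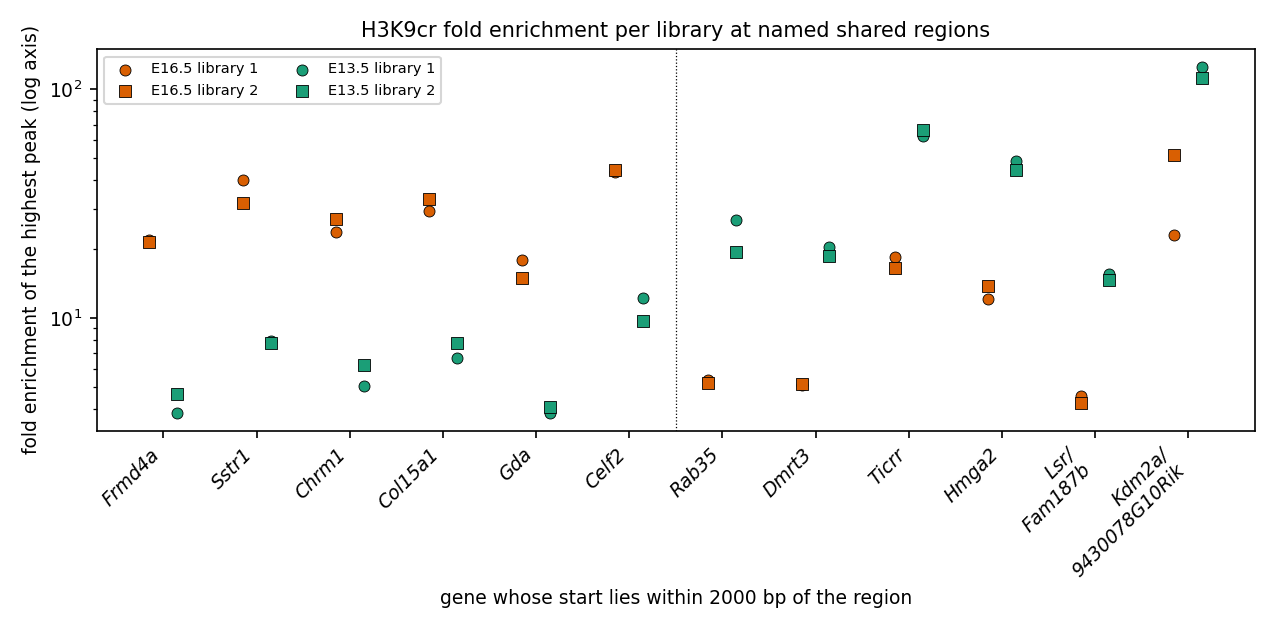
Fold enrichment on a log axis of the 12 named shared regions, with E16.5 and E13.5 libraries as separate points. At each region both E16.5 points lie on the same side of both E13.5 points, above them for Frmd4a to Celf2 and below them for the others. The regions were chosen for large changes in this measure.

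Width calls depended on the scaling and the fit: 12 wider and 2 narrower regions were called with quantile normalization, and none by limma under a replicate block or where peaks had to cover 50% of a region, with 4752 and 4139 regions at an unadjusted p under 0.05. Among the wider regions at E16.5, the one at Slc26a7 and Lrrc69 changed by more than that of Frmd4a (2929 and 3168 bp at E16.5, against 322 and 258 bp at E13.5), followed after Frmd4a by those at Pde4a, a cyclic AMP phosphodiesterase (1796 and 1329 bp, against 353 and 232 bp), at Slitrk2, a synaptic adhesion protein (1263 and 1583 bp, against 308 and 230 bp), and at Maml2, a Notch co-activator (2424 and 2349 bp, against 513 and 398 bp). Fold enrichment at Pde4a, Slitrk2 and Maml2 was not called. Narrower regions at E16.5 were at Dmrt3, at Fezf1, a transcription factor of forebrain patterning (451 and 375 bp at E16.5, against 2296 and 2237 bp at E13.5), and at Otx2, a transcription factor of the anterior brain and choroid plexus (447 and 327 bp, against 1689 and 1962 bp). These examples were chosen after their values were seen, as the extremes of the width test.

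Regions found at a single stage have no value in the other stage's lists, and their presence was not tested. Of the 6647 E16.5-only regions 150 had a mean fold enrichment of at least 10, as did 14 of the 280 E13.5-only regions. The tallest E16.5-only region at a gene end was at Aox4, an aldehyde oxidase (chr1:58210368-58211340), with a fold enrichment of 27.8 and 27.9 at E16.5. Next came Hepacam, an adhesion protein of astrocytes (chr9:37367141-37368990), with 27.8 and 22.8, and Gm42048 (chr8:121832306-121833132) with 23.8 and 20.8. Both genes had other peaks at E13.5. Over Hepacam and 2000 bp around it, the tallest peak had 59.9 and 76.4 at E16.5, against 33.4 and 35.4 at E13.5. For Gm42048 the tallest at E13.5 had 6.62 and 8.12. Sla, a Src-like adaptor of receptor signalling, had 19.3 and 16.1 over more than 3 kb in both libraries (chr15:66828756-66832002). Regions at Foxp1 (chr6:99263304-99264878) and Camk2b (chr11:6065820-6066354), a forkhead factor and a subunit of a synaptic calcium-dependent kinase, had 14.8 and 12.9, and 12 and 14.9, beside peaks of the same genes present in all 4 lists. RNA of Aox4, Hepacam, Sla, Foxp1 and Camk2b was higher at E16.5 in edgeR's test, and Gm42048 has no entry in the RNA table.

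The tallest E13.5-only regions included 3 at genes with near-identical copies, where placement of reads is uncertain. These were at the replication-dependent histone genes H3c15 and H2ac19 (chr3:96239504-96239792; 55.5 and 45.6 at E13.5), at Ear10 of the eosinophil-associated ribonuclease family (chr14:43925211-43926105; 41.6 and 32.1) and at Gm2446 and Srp54c, the last a signal recognition particle gene (chr12:55230597-55230863; 32.8 and 23.6). Ear10 RNA was 0 in all 4 RNA libraries. Nhlh1, a basic helix-loop-helix factor of newly made neurons, had 15 and 14.3 at E13.5 (chr1:172055989-172057606), and its RNA was 11.2 and 10.7 CPM at E16.5, against 73.4 and 62.8 CPM at E13.5 (edgeR adjusted p = 8.9e-07). E030030I06Rik had 11 and 8.5, and Rbpms2, an RNA-binding protein, had 9.46 and 8.48 at E13.5, with no RNA call for either. Some of these genes had other peaks at E16.5. Over Nhlh1 and 2000 bp around it, the tallest peak had 18.2 and 27.9 at E16.5, against 22.4 and 14.3 at E13.5. H3c15, H2ac19 and Rbpms2 had a peak at the start in all 4 lists.

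Of 21631 protein-coding genes, 13424 (62.1%) had an H3K9cr peak at the start in all 4 lists, 218 (1.01%) in both E16.5 lists alone, 22 (0.102%) in both E13.5 lists alone, 638 (2.95%) in another mix and 7329 (33.9%) in none. RNA of the E16.5-only genes was mostly higher at E16.5: of 116 tested, 87 (75%) were higher and 2 lower, beside 30.3% higher and 32.3% lower over all protein-coding genes tested. Among those with at least 1 CPM in every library, 45 of 60 were higher and 1 lower, beside 28.7% and 35.4% of all such genes. Where RNA averaged 5 CPM or more across its 4 libraries, the largest RNA rise called was that of Slco1c1, the thyroid hormone transporter of brain endothelium and astrocytes, with 66.5 and 57.1 CPM at E16.5, against 3.72 and 4.46 CPM at E13.5. Hepacam followed with 25.6 and 23.1 CPM at E16.5, against 1.74 and 2.2 CPM at E13.5. Shfl, an inhibitor of ribosomal frameshifting, Baalc, and Cpne6, a neuronal copine, had RNA log2 changes of 3.19, 2.91 and 2.53, and Sla followed with 59.4 and 67.2 CPM at E16.5, against 14.2 and 9.81 CPM at E13.5. Of the 2 genes with lower RNA, Sbk1, a kinase gene, was lower by 0.18 on the log2 scale, and Tfap2e, also lower, averaged under 5 CPM. Other E16.5-only genes marked cell types: Aqp4 and Aldh1l1 of astrocytes, Pecam1 of endothelium, P2ry12 of microglia, Rgs5 of pericytes, Crym of deep-layer neurons, and also Foxf2 and En2. RNA of the whole endothelial list was higher at E16.5, with 11 of 11 genes called and a sum of 623 and 639 CPM at E16.5, against 226 and 237 CPM at E13.5. The microglia list summed to 168 and 164 CPM at E16.5, against 78.0 and 78.1 CPM at E13.5, with 12 of 13 genes called higher. The pericyte list summed to 348 and 356 CPM at E16.5, against 225 and 235 CPM at E13.5, with 6 of 7 genes higher and 1 lower. No gene of these 3 lists was at 0 CPM in all libraries, and the part of these cells in the H3K9cr changes was not tested.

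E13.5-only gene starts were few. RNA of 18 of the 22 genes was tested, and 9 (50%) were lower and 1 (5.56%) higher at E16.5. Over all protein-coding genes tested, 32.3% were lower and 30.3% higher. Prdm12, a transcription factor of sensory neurons, had RNA of 2.4 and 2.83 CPM at E16.5, against 10.9 and 12.4 CPM at E13.5. Ebf3, a transcription factor of Cajal-Retzius cells, had 6.58 and 6.64 CPM at E16.5, against 20.3 and 25.9 CPM at E13.5, and Ebf2 of the same family was also E13.5-only. Srp54c RNA was lower by 0.50 on the log2 scale. The E13.5-only result depended on the lists: with the same number of peaks in each, 75 genes were E13.5-only. Of 50 tested 12 had higher and 12 lower RNA, 24% each way and below both shares over all protein-coding genes. The same step left 103 E16.5-only genes, with RNA higher for 39 of 55 tested and lower for 2. Without replicate 1 or 2 of E16.5 there were 328 or 309 E16.5-only and 33 or 50 E13.5-only genes, and without replicate 1 or 2 of E13.5 there were 425 or 279 and 35 or 82. The grouping by an equal number of peaks was chosen after the data were seen.

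Genes were next ranked by summed signal, that is, fold enrichment times peak length in kb, added over all peaks on the gene body and 2000 bp around it. Of 14357 genes with signal in every list, 1951 (13.6%) were higher at E16.5 and 619 (4.31%) lower by limma, and 1313 higher and 360 lower without centring. The genes named next had the largest called changes among genes with a mean sum of at least 111, the median of all tested; genes with lower sums changed by more, such as Tnc below. Gucy1a1, a subunit of the nitric oxide receptor guanylate cyclase, had a summed signal of 284 and 383 at E16.5, against 60.6 and 25.5 at E13.5 (log2 change 3.11 ± 0.35, adjusted p = 0.0105). Peaks covered 6807 and 6111 bp of it at E16.5, against 1847 and 1160 bp at E13.5, and its tallest peak had a fold enrichment of 56.4 and 73.3 at E16.5, against 32.8 and 22.0 at E13.5. Mef2c, a transcription factor of maturing cortical neurons, had 1050 and 916 at E16.5, against 218 and 176 at E13.5 (log2 change 2.37 ± 0.18), over 24973 and 23897 bp against 8121 and 6230 bp. The tallest peak of Mef2c had a fold enrichment of 73.8 and 69.2 at E16.5, against 62.1 and 46.0 at E13.5, so the covered length differed by more than the top height. Lrrtm3, a synaptic adhesion protein, had 214 and 252 at E16.5, against 51.8 and 32.8 at E13.5 (log2 change 2.54 ± 0.22). Sparcl1, a secreted protein that promotes synapses, had 256 and 231 at E16.5, against 70.1 and 27.6 at E13.5 (log2 change 2.51 ± 0.34). Marchf1, a ubiquitin ligase, had 324 and 333 at E16.5, against 87.8 and 49.2 at E13.5 (log2 change 2.37 ± 0.23). RNA of these 5 genes was higher at E16.5, by 2.93 on the log2 scale for Sparcl1 and 1.39 to 2.01 for the others. Cir1, a corepressor of Notch target genes, summed to 610 and 599 at E16.5, against 118 and 88.8 at E13.5, but its own tallest peak was lower, with 37.7 and 37.0 at E16.5 against 67.1 and 55.3 at E13.5, its RNA was not called, and its sum had a log2 change of -0.65 when the bases around the gene were left out.

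Among the falls in summed signal, Hmga2 had 68.5 and 62.0 at E16.5, against 277 and 234 at E13.5 (log2 change -1.92 ± 0.18). Its covered length was 7440 and 6628 bp at E16.5, against 10972 and 9688 bp at E13.5, and its tallest peak fell with it. For the other 5 no RNA fall was called, and RNA of Ly6g5b and 9430078G10Rik was not tested. Ly6g5b summed to 42.7 and 36.6 at E16.5, against 242 and 188 at E13.5, with RNA of 0.502 and 1.03 CPM at E16.5, against 0.540 and 0.331 CPM at E13.5. Acadvl, the very long-chain acyl-CoA dehydrogenase of mitochondria, summed to 75.2 and 59.5 at E16.5, against 388 and 287 at E13.5, but the difference lay outside the gene body (log2 change 0.43 without the bases around it). H2-Ke6, a steroid dehydrogenase gene, and Dpm1, a subunit of dolichol-phosphate mannose synthase, had log2 changes of -1.78 and -1.75 with RNA not called. 9430078G10Rik repeated the peak shared with Kdm2a. A peak was counted in full for every gene it overlapped, so neighbours share signal. With a library left out the calls were fewer: 762 higher and 167 lower, or 520 and 122, without replicate 1 or 2 of E16.5, and 725 and 53, or 323 and 25, without replicate 1 or 2 of E13.5. Of the 12 genes named for their sums, 10 to 12 held their call in each of these fits, but 7 did when peak length was left out, where Lrrtm3, Sparcl1, Cir1, Acadvl and 9430078G10Rik lost it. Of the 11 with a value without the bases around the gene 8 held it, and Cir1, Acadvl and H2-Ke6 lost it. Dpm1 lost it without replicate 2 of E13.5, and 9430078G10Rik lost it in each fit except that without replicate 2 of E16.5. In 274 genes signal was found in the E16.5 lists alone and in 13 in the E13.5 lists alone.

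Gene lists by cell type and function showed which groups of genes these were. Counts below are of genes called in summed signal by limma, beside 13.6% higher and 4.31% lower over all genes tested. Of the 49 listed genes named by the rule for their sums, 30 and 29 held their call without replicate 1 and 2 of E16.5, and 23 and 15 without replicate 1 and 2 of E13.5. Without peak length 23 of the 49 held their call. Counted over all tested members of each list, the sums without peak length gave these calls. Higher were 9 synapse, 10 channel, 6 neuronal differentiation, 4 upper-layer, 3 deep-layer, 3 astrocyte, 1 endothelial and 1 pericyte gene, and none of the oligodendrocyte list. The early progenitor and radial glia lists had 1 higher and 1 lower gene each. Of 30 synapse genes 15 were higher and none lower, and of 31 potassium, sodium and calcium channel genes 15 were higher and none lower. Syt4, a synaptotagmin of vesicle release, summed to 464 and 399 at E16.5, against 122 and 73.3 at E13.5, and Grin1, the shared subunit of NMDA receptors, to 106 and 135 at E16.5, against 38.3 and 26.2 at E13.5. Both genes had no overlap between the stages. Cacng3, an AMPA receptor auxiliary protein of the calcium channel family, and Kcnh1, a voltage-gated potassium channel, had log2 changes of 2.52 and 2.0. RNA rose in 26 of the 30 synapse genes, with 1 lower, and in 27 of the 31 channel genes, with none lower, beside 30.3% higher and 32.3% lower over all protein-coding genes tested. At their starts 2 of 30 synapse genes and 6 of 31 channel genes had a higher region and none a lower one, beside 2.16% higher and 9.66% lower over all gene starts tested. Without centring, under a replicate block, without length and with pileup in place of fold enrichment, no synapse or channel gene was called lower. Without replicate 1 or 2 of E16.5, 7 or 6 synapse genes and 9 or 5 channel genes were called higher, and without replicate 1 or 2 of E13.5, 5 or 3 and 6 or 1.

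Neuron lists moved the same way in summed signal. Of 19 genes of neuronal differentiation and axon growth 9 were higher, among them Stmn2, a microtubule regulator of growing axons, with 626 and 623 at E16.5, against 237 and 178 at E13.5, and Gap43 of growth cones (log2 change 1.5). Of 13 upper-layer genes 7 were higher, including Mef2c. Of 12 deep-layer genes 6 were higher, led by Ldb2, a LIM domain cofactor, with 186 and 203 at E16.5, against 40.7 and 39.0 at E13.5, and Pcp4, a calmodulin-binding peptide (log2 change 1.88). None of these 3 lists had a gene called lower. At gene starts few were called: 1 of 18 neuronal differentiation genes was higher, none of 13 upper-layer genes was called, and of 11 deep-layer genes 1 was higher and 2 lower. RNA of the deep-layer list did not lean one way, with 6 genes higher and 6 lower of 13. Of 18 genes of inhibitory neurons and ventral telencephalon 4 were higher, including Npy, neuropeptide Y (log2 change 2.03), and Foxp1 (1.44), and 2 were lower, Lhx8 (-1.41) and Nkx2-1 (-1.18), both transcription factors of the medial ganglionic eminence. No gene of that list was called without peak length. Of 7 Cajal-Retzius genes Calb2, the calcium-binding calretinin, was higher, and Lhx5 and Ebf3, transcription factors of these cells, were lower, and again none was called without peak length. With each library left out in turn, 0 to 6 genes of neuronal differentiation, 2 to 4 upper-layer genes, 1 or 2 deep-layer genes, 0 to 3 higher and 0 or 1 lower ventral genes, and no higher and 0 to 2 lower Cajal-Retzius genes were called, with the fewest in each list without replicate 2 of E13.5, a count matched for the ventral and Cajal-Retzius lists without replicate 1 of E13.5.

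Progenitor lists moved the other way or split. Of 20 cell cycle genes 6 were lower and none higher, and RNA of all 20 was lower at E16.5. Aurkb, a mitotic kinase, summed to 28.3 and 31.1 at E16.5, against 107 and 114 at E13.5, and Ccnb2, a mitotic cyclin, to 15 and 20.5 at E16.5, against 51.1 and 51.3 at E13.5. At their starts 7 of the 20 had a lower tallest region and none a higher one, beside 9.66% lower and 2.16% higher over all gene starts tested. Of 10 early progenitor genes Hmga2 and Igf2bp2, an RNA-binding protein of young stem cells, were lower, and of 10 intermediate progenitor genes Neurog1, a proneural factor, and Mfng, a Notch modifier, were lower. Radial glia genes split, with 3 higher and 2 lower of 19. Nes, an intermediate filament of stem cells, summed to 72.2 and 104 at E16.5, against 225 and 215 at E13.5, and Hes1, a Notch target, fell too (log2 change -1.05). With each library left out in turn, 0 to 4 cell cycle genes were lower, none of them without replicate 2 of E13.5, 1 or 2 radial glia genes were higher and 0 or 1 lower, and 1 early and 1 intermediate progenitor gene were lower, with 1 early progenitor gene higher without replicate 1 of E13.5. Tnc, an extracellular matrix protein of late radial glia and astrocytes, had the largest rise of any listed gene, with 112 and 85.6 at E16.5, against 6.23 and 7.79 at E13.5 (log2 change 3.86 ± 0.28, limma adjusted p = 0.0084), and RNA of 456 and 387 CPM at E16.5, against 48.5 and 58.1 CPM at E13.5.

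Glial and vascular lists were mostly higher where they changed. Of 15 astrocyte genes 5 were higher and none lower, such as Slc6a11, a GABA transporter, with 99 and 101 at E16.5, against 18.9 and 15.4 at E13.5. Of 7 oligodendrocyte genes Sox8 and Cnp were higher and Olig2 lower, but the Sox8 sum had a log2 change of -0.32 when peak length was left out. Of 6 endothelial genes Esam, Cldn5 and Kdr, which encode an adhesion protein, a tight junction protein and a receptor for vascular growth factor, were higher, and of 5 pericyte genes Abcc9 and Pdgfrb were higher. Both meningeal genes with signal in every list, Foxc1 and Col1a2, were higher as well, with a list RNA sum of 46.0 and 52.8 CPM at E16.5, against 23.6 and 44.8 CPM at E13.5. Their peaks were low, the tallest at E13.5 having 3.78 and 4.64 for Foxc1 and 4.10 and 4.29 for Col1a2. No meningeal gene had a value in every list with peaks of a -log10 q of at least 5 or with equal numbers of peaks. Without peak length 1 of the 2 was called. With any 1 library left out 5 astrocyte genes were higher, with 1 lower gene of that list without replicate 1 of E16.5, and the endothelial and pericyte calls fell to 1 each without replicate 2 of E13.5. In the oligodendrocyte list 1 gene was called, as higher, without that library, and none was called with any of the other libraries left out. Neither of the 2 microglia genes with signal in every list was called. Of 3 erythroid genes Ank1 was higher, a call lost with any 1 library left out, and 12 of the 16 erythroid genes, globins among them, had no peak in any list, while the erythroid RNA sum was 2671 and 3598 CPM at E16.5, against 1984 and 1952 CPM at E13.5.

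Genes that write, remove or feed the mark changed little in H3K9cr themselves. None of 9 histone acyltransferase genes and none of 10 deacylase genes was called in summed signal, with median log2 changes of -0.21 and -0.17, beside 0.09 over all genes tested. Of 18 genes of crotonyl-CoA and acyl-CoA enzymes Ehhadh, a peroxisomal enzyme of fatty acid breakdown, was higher (log2 change 1.71), and Acadvl, with the limit given above, and Cdyl, a chromodomain protein known to hydrate crotonyl-CoA, were lower. Cdyl summed to 11 and 11.1 at E16.5, against 43.8 and 34.3 at E13.5 (log2 change -1.76, limma adjusted p = 0.01), a call held with any 1 library left out and lost without peak length, and its RNA was 6.53 and 7.07 CPM at E16.5, against 12.2 and 12.8 CPM at E13.5. RNA was lower for 6 of the 9 acyltransferase genes and 9 of the 11 reader genes, with none higher in either list. Of the 10 deacylase genes 3 had lower and 1 higher RNA. Of the 18 crotonyl-CoA and acyl-CoA enzyme genes 7 had lower and 1 higher RNA. These stand beside 30.3% higher and 32.3% lower over all protein-coding genes tested. Ehhadh lost its call without replicate 2 of E16.5 or replicate 2 of E13.5. Of 24 cytosolic ribosomal protein genes none was called in summed signal, with a median log2 change of -0.01.

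**Figure D3:**
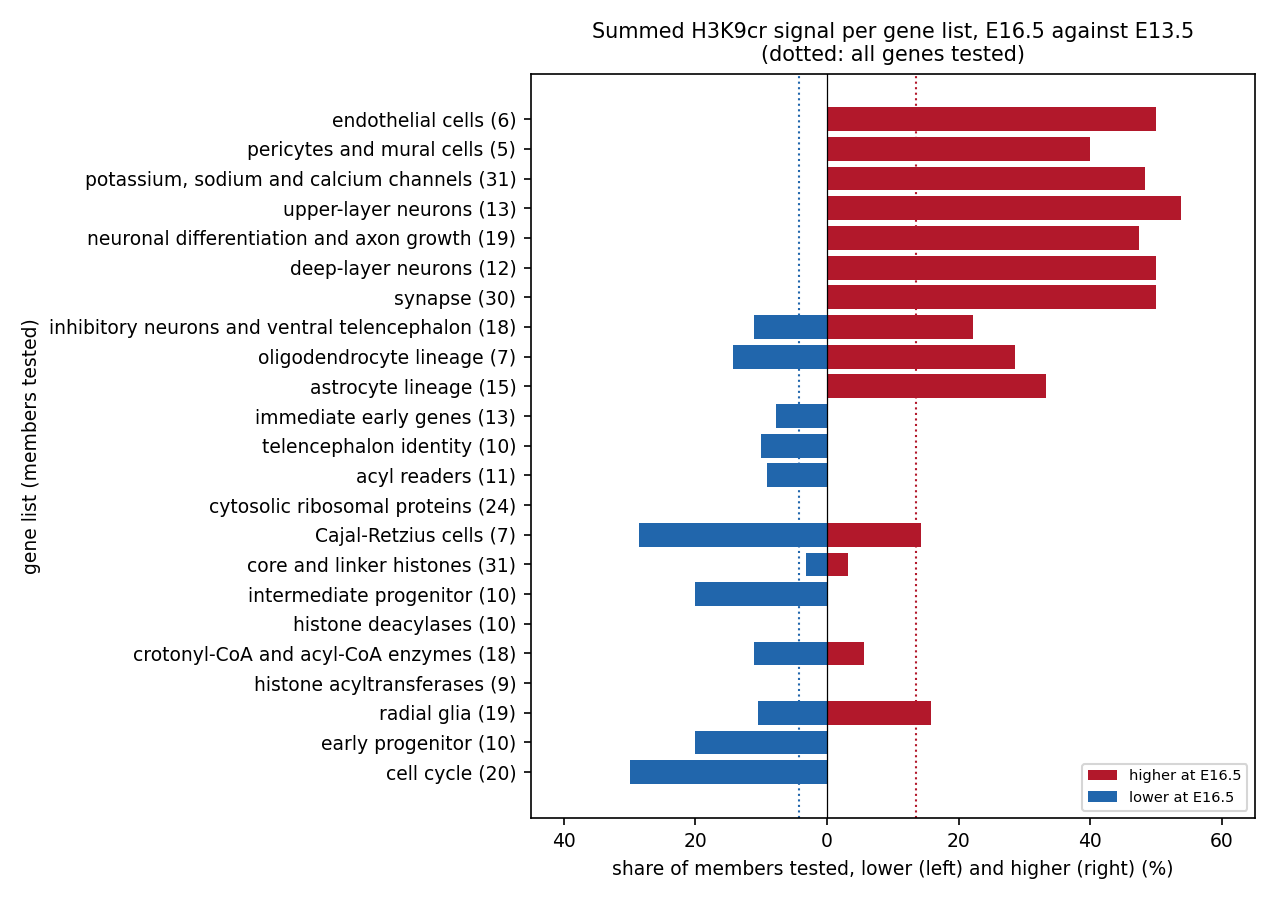
Share of the tested members of each gene list called higher or lower at E16.5 in summed H3K9cr signal, beside the share over all genes tested. Synapse and channel lists have 15 genes higher and none lower, and the cell cycle list has 6 lower and none higher.

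Over fixed bins of 100 kb, 1807 of 11791 bins with signal in every list (15.3%) were higher at E16.5 and 679 (5.76%) lower by limma. The bin with the largest rise, chr4:23800001-23900000, overlapped no protein-coding gene, lost its call without peak length and had no value with peaks of a -log10 q of at least 5. It summed to 377 and 269 at E16.5, against 7.31 and 1.37 at E13.5 (log2 change 6.40 ± 0.71, adjusted p = 0.0152), with 10310 and 8253 bp covered at E16.5, against 1315 and 295 bp at E13.5. The bins at Celf2 (chr2:7300001-7400000) and at Foxp1 (chr6:99200001-99300000) had log2 changes of 3.69 and 3.65. The Celf2 bin, which holds its start region, summed to 170 and 174 at E16.5, against 14.1 and 8.88 at E13.5. The largest fall was in the bin that overlaps Castor2, of a family of arginine sensors (chr5:134000001-134100000). It summed to 13.4 and 17.2 at E16.5, against 315 and 244 at E13.5 (log2 change -4.44 ± 0.21). Castor2 was not among the 6 genes named for falls in summed signal, where the largest was -2.39 for Ly6g5b. The fall is thus one of the bin and is not shown for the gene. The bin of Pkd2, Thoc2l and Zfp33b (chr5:104500001-104600000) had a log2 change of -2.51, and the Hmga2 bin (chr10:120400001-120500000) of -2.26. No bin was called without replicate 1 or without replicate 2 of E16.5, and 1546 and 747 were higher and 199 and 51 lower without replicate 1 and replicate 2 of E13.5. Without centring 2433 bins were higher and 145 lower.

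RNA moved with the mark across classes of genes, and RNA was not used to choose the peaks. The tallest shared region at the start was called higher for 291 genes and lower for 1299. Of 230 genes with a higher start region and tested RNA, 190 had higher RNA at E16.5 and 6 lower, and of 1258 with a lower start region 712 had lower RNA and 154 higher. Under all 3 scalings of the mark these counts were 138 of 164 higher and 6 lower, and 238 of 371 lower and 38 higher. By summed signal, 1138 of 1596 genes with more H3K9cr had higher RNA and 76 lower, and 388 of 582 with less had lower RNA and 46 higher. These shares stand beside 30.3% higher and 32.3% lower over all 13872 protein-coding genes tested. Across 13033 genes the log2 change in summed signal and in RNA had a Pearson r of 0.55 and a Spearman rho of 0.50, and across 12576 genes the change at the start region and in RNA had 0.47 and 0.43. Genes are not independent replicates, and these correlations are descriptions.

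**Figure D4:**
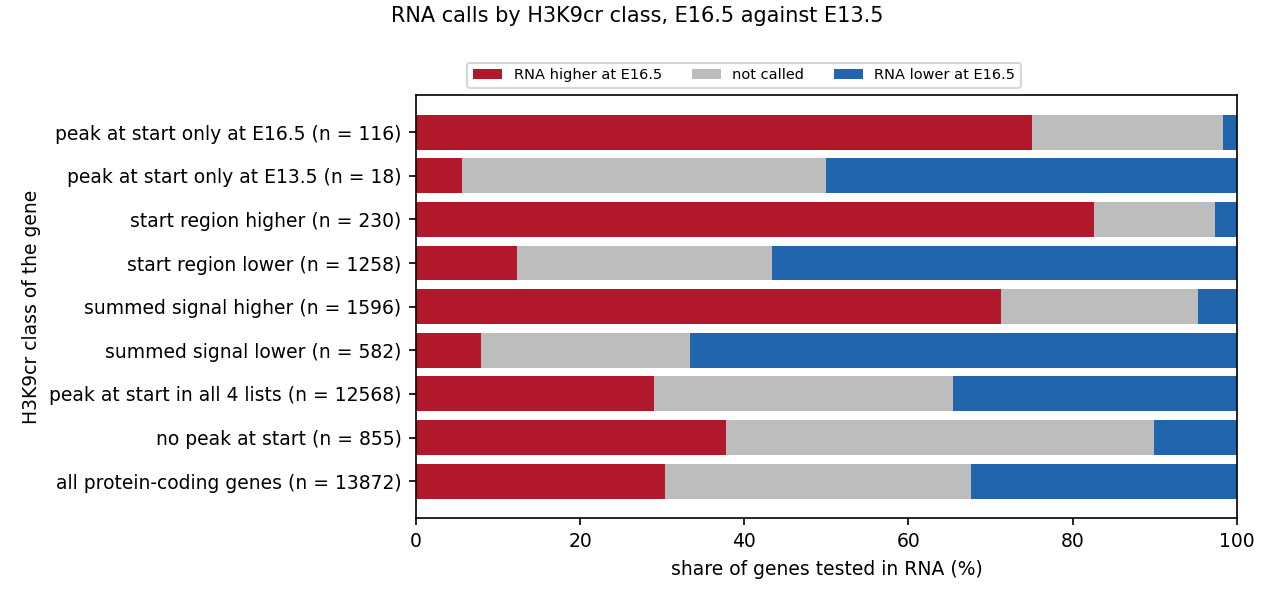
Share of protein-coding genes tested in RNA whose RNA was called higher, lower or neither at E16.5, by H3K9cr class. RNA was higher for 75% of genes with a peak at the start at E16.5 alone and 82.6% with a higher start region. It was lower for 56.6% of genes with a lower start region. Over all protein-coding genes tested, 30.3% were higher and 32.3% lower.

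A sequence contrast in the same direction as that of the 6 printed promoters was found over the classes. The classes use the tallest shared region at a gene's start, which of the 6 was called for Ticrr and Hmga2. Hepacam falls in the class with a peak at E16.5 alone, and Frmd4a, Celf2 and Rab35 among those not called. The 6 are a selection of the named promoters. The ratio of observed to expected CpG had a median of 0.483 over 304 promoters of genes with a higher start region, against 0.835 over 1396 promoters of genes with a lower one, and 0.743 over 12152 promoters of genes whose start region was not called. A ratio of at least 0.6 was found in 35.5% of promoters with a higher start region and 79.2% of those with a lower one. Promoters of genes with a peak at E16.5 alone had a median of 0.373 (187 promoters), those with a peak in all lists 0.749, those with none 0.175, and all 21045 promoters 0.574. Under all 3 scalings the medians were 0.460 for higher and 0.810 for lower start regions. The named promoters spanned wide ranges within this: 2 to 9 CpG pairs in the 5 promoters at rising shared regions, 7 to 43 in the 7 at falling ones, and 5 to 51 in the 5 at E16.5-only regions, where Camk2b held the 51. The 7 promoters at E13.5-only regions held 1 to 48, and promoters of all genes with a start peak at E13.5 alone had a median ratio of 0.728 (21 promoters). Height moved with the direction of change, though not evenly: the median centred log2 change was -0.14 over the 2435 lowest shared regions, 0.13 over the 2435 with a mean fold enrichment of 11.2 to 15.9 and -0.26 over the 2435 tallest, against -0.09, 0.03 and -0.03 with quantile normalization. The part of height in the sequence contrast was not tested.

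**Figure D5:**
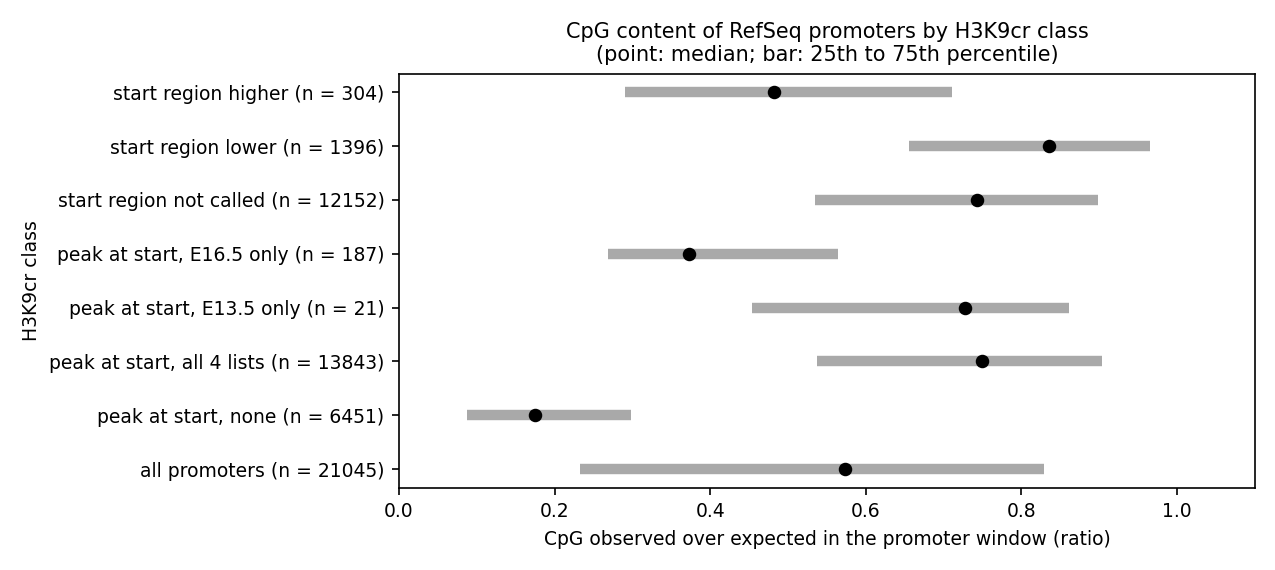
Observed over expected CpG in RefSeq promoters by H3K9cr class, as the median and the 25th to 75th percentile. Promoters of genes with a higher start region at E16.5 have a median of 0.483, those with a lower one 0.835, and those with no peak 0.175.

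Short motifs were searched in these promoters on both strands. The GC box of Sp and KLF factors (GGGCGG) was in 45.1% of promoters with a higher start region and 66.5% of those with a lower one, beside 46.7% of all promoters. An ETS motif (CCGGAAG) was in 3.62% and 19%, beside 11.7%. A TATA box (TATAAA) was in 10.9% of promoters with a higher start region and 5.37% of those with a lower one, beside 12.7% of all, and an E-box of proneural factors (CAGCTG) in 19.7% and 13.3%, beside 15.7%. In the same order, the CCAAT box (CCAAT) was in 34.2% and 42.0%, beside 38.5%, and AP-1 (TGANTCA) in 5.59% and 4.15%, beside 7.04%. YY1 (AAGATGGC) was in 0.987% and 5.80%, beside 3.07%, and CRE (TGACGTCA) in 1.32% and 3.01%, beside 2.26%. An NRSF motif (TTCAGCACC) was in 1.32% and 0.358% (4 and 5 promoters), beside 0.418%. The GC box, ETS and CRE motifs contain CpG pairs themselves, and overlapping matches of different motifs were each counted. These are matches of letters and are given as descriptions.

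Other marks at the same positions were read from their own peak lists. Of the 6647 E16.5-only H3K9cr regions, 81.9% were overlapped by peaks in both H3K9ac lists at E16.5 and 13.9% in both at E13.5. For H3K18la the shares were 62.3% at E16.5 and 49.2% at E13.5. Both ATAC lists at E13.5 overlapped 9.90% of these regions, 6.79% of E13.5-only regions and 7.19% of mixed regions, against 51.7% of shared regions. Of the 280 E13.5-only regions, 31.1% were overlapped in both H3K9ac lists at E16.5 and 73.2% at E13.5, and for H3K18la the shares were 41.4% and 65.7%. At Frmd4a H3K9ac had a fold enrichment of 23 and 19.97 at E16.5, against 4.36 and 3.20 at E13.5, and at Ticrr 13.8 and 18.7 at E16.5, against 47.7 and 45.6 at E13.5. H3K18la at Frmd4a was 4.70 and 4.59 at E16.5, against 4.79 and 5.15 at E13.5, slightly lower at E16.5 where H3K9cr was higher, and this difference was not tested.

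Whether the stage difference of H3K9cr departed from that of H3K9ac was tested at 23185 regions with peaks in all 8 lists of both marks. The limma interaction called no region, higher or lower (0% of those tested), with 1193 regions (5.15%) at an unadjusted p under 0.05 and a smallest adjusted p of 0.926. No region was called either without centring, with pileup in place of fold enrichment, under a replicate block, with stricter peaks or with any 1 library left out, and no other tool was run. The interaction had a median of 0.04 on the log2 scale, and 5% and 95% of regions lay below -0.56 and 0.64, with a median SE of 0.31, so differences of that size between the marks were not detectable with 2 libraries per group. Of 936 regions higher in H3K9cr and tested here, 918 had the same sign in H3K9ac, with median changes of 1.12 for H3K9cr and 0.85 for H3K9ac. Of 1578 lower regions, 1559 had the same sign, with medians of -0.98 and -0.83. Regions were chosen on H3K9cr, so its own medians are the larger ones by selection as well, and no difference between the marks is drawn from them.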

How the data were processed

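A peak list per library was used as deposited. The submitters' processing notes name Bowtie2 2.4.1, MACS2 2.2.7.1 and the build GRCm38. Per the file headers, a peak's pileup is a signal and its fold enrichment over local background a ratio, and the authors' caller also gave the -log10 p-value and q-value. Every listed peak had a q-value under 0.01. The deposited RNA values are estimated counts per gene as the authors gave them, for which the submitters' processing notes name Salmon 1.1.0. Totals were 17532927 and 18024375 at E16.5 and 17059330 and 18485639 at E13.5, and the counts were rounded here.

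Peaks that overlapped by at least 1 bp were merged into regions, and each library's tallest peak gave a region its height. Heights, summed widths and sums over genes and 100 kb bins were taken to log2, centred on each library's median and tested with limma 3.58.1 (R 4.3.3), E16.5 minus E13.5, 2 libraries each, with Benjamini-Hochberg adjustment over all features and a threshold of 0.05. RNA was tested with edgeR 4.0.16 (quasi-likelihood, TMM, filterByExpr), with DESeq2 1.42.0 as an alternative. Each test was first tried on simulated data. Genes came from RefSeq GRCm38.p6: the start was used for the 17274 genes with a strand in the promoter table and either end for the other 4357. RNA entries were matched by ID or symbol for 21075 of 21631 genes.

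Named regions and genes were those with the largest changes by fixed rules: 6 in each direction for shared regions with a mean fold enrichment of at least 5 and for summed signal with a mean sum of at least the median of tested genes (111), the 6 tallest regions of each stage, 3 bins in each direction by the same rule, up to 6 stage-only genes in each RNA direction that averaged 5 CPM or more, and up to 2 genes in each direction per gene list. The members and the 29 gene lists were chosen with earlier results of these data known. Alternatives were other scalings, peak thresholds, overlaps, windows and sums, a replicate block and leaving out each library. Input libraries were not analysed here, and peaks on chromosome Y were left out. Results for a few genes are not reported here.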

Additional observations from a re-analysis of the deposited data

Results flagged for a closer look

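Peaks on chromosome Y were outside the comparisons. The E16.5 lists held 11 and 11 of them and the E13.5 lists 11 and 8. They were singled out because they are signal in data not used elsewhere.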

How the results depend on the processing

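Each count is given as higher and lower at E16.5. Shared fold enrichment gave 2221 and 818 without centring, 690 lower with quantile normalization, 1556 higher with the same number of peaks per list and 638 lower where each list had to cover 50% of a region. Pileup gave 9356 and 182 without centring, 3651 lower with quantile normalization and 3735 lower with 50% cover. Width gave 8 narrower without centring, 12 and 2 with quantile normalization, 0 and 0 with 50% cover, 342 wider for peaks with a -log10 q of at least 5, and 411 and 40 with the same number of peaks. Summed signal of genes gave 975 and 359 without length, 3477 and 1772 with pileup, and 360 lower without centring. Bins gave 888 and 272, 2748 and 1854, and 145 lower. The same number of peaks left 1958 and 1124 regions and 103 and 75 genes at E16.5 and E13.5 alone, with RNA higher for 39 of those 103. The cause was not tested.

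With each library left out in turn, fold enrichment and width called 0 regions, pileup 1002 to 2439 higher and 1804 to 4259 lower, genes 323 to 762 and 25 to 167, and bins 0 to 1546 and 0 to 199. Regions at a single stage numbered 7308 to 12154 at E16.5 and 579 to 1588 at E13.5, and genes 279 to 425 and 33 to 82. The lone library of a stage was then assumed to vary like the others.

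Deviations of equal replicate numbers in fold enrichment correlated at 0.0085 between stages. This does not show whether equal numbers shared a batch, which the sources used here do not state. A replicate block gave 1545 and 2407 regions in fold enrichment, 0 and 0 in width, and 336 bins lower.

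Overlap with peaks of -log10 q of at least 5 was, for H3K9ac at E16.5 and E13.5, H3K18la at E16.5 and E13.5, and ATAC, 98.9%, 94.1%, 74.6%, 78.4% and 43.0% of shared regions, 71.3%, 7.12%, 52.8%, 38.9% and 6.38% of E16.5-only regions, and 18.2%, 57.5%, 34.3%, 60% and 5.36% of E13.5-only regions.

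Of 1766 alternatives for 189 single regions, bins and genes, 1477 kept direction and call, 263 lost the call, 13 gained it and 13 changed sign. The log2 changes of these were 0.00906 for the Kdm2a width without centring, 0.43 for Acadvl and -0.65 for Cir1 without the bases around the gene, and -0.32 for Sox8 without length. The others were of RNA that was not called in the main fit with all RNA libraries. They were 0.066 for Cir1 with upper-quartile scaling, and, with each RNA library left out in turn, -0.097 to 0.027 for Cir1, -0.12 to 0.18 for Cnp, -0.014 to 0.15 for Dpm1, -0.24 to 0.90 for Ehhadh, -0.40 to 0.049 for H2-Ke6 and -0.017 to 0.26 for Lsr. With 2 libraries per group and no read depth, modest changes and the absence of low peaks were not detectable.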

Other observations

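Genes with H3K9cr signal anywhere in the gene at a single stage numbered 274 at E16.5, such as Tnxb and Aqp4, and 13 at E13.5, such as Fndc3c1 and Barhl2. These examples were chosen after their values were seen.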
